A study of Mus musculus with 49 samples.

Results

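CXCR3 and CXCR6 are chemokine receptors of activated lymphocytes, and the genes described here are these 2 receptors and the chemokines that bind them: Cxcr3 with its ligands Cxcl9, Cxcl10 and Cxcl11, and Cxcr6 with its ligand Cxcl16. The 6 genes were chosen by symbol from a raw count matrix of 39179 genes, and all 6 were found. The matrix covers 49 tumours of CT26, a mouse colorectal carcinoma line transplanted by injection into BALB/c mice. Tumours received anti-PD-1 plus celecoxib (the combination, n = 16), anti-PD-1 alone (n = 17), celecoxib alone (n = 7) or vehicle (n = 9). Anti-PD-1 is an antibody against an inhibitory receptor of T cells, given here at 200 µg per dose in 2 doses, and celecoxib, given daily at 30 mg/kg, blocks COX-2, an enzyme of prostaglandin synthesis. Vehicle was a mixture of DMSO-PEG400 and water. Treatment began on day 7 after injection and ran for 7 days. The tissue label places collection on day 7 of treatment and the RNA protocol on day 4, and neither source resolves the difference.

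Tumours are further marked R or NR for response, without a definition in the labels. With the combination, 12 tumours are R and 4 are NR. With anti-PD-1 alone, 4 are R and 13 are NR. All celecoxib and all vehicle tumours are NR, so R and NR can be compared only under the antibody. Nothing in the labels states that every tumour is from its own mouse, and the p-values therefore reflect only how these samples vary. Total counts ranged from 4251251 to 13671294 per tumour, with a median of 7670623. The labelled tissue was checked against markers of an epithelial carcinoma: keratin Krt18 averaged 14.5 CPM (counts scaled to library size) and Epcam 1.07 CPM, while the intestinal genes Cdx2 and Vil1 averaged 0.0019 and 0.017 CPM. Skeletal muscle, skin or fat markers were high in 13 of the 49 libraries, and the values without these libraries are given where they end a call or turn a direction.

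CXCL9, CXCL10 and CXCL11 are secreted chemokines that interferon-gamma induces in macrophages, dendritic cells, endothelium and tumour cells, and CXCR3 carries activated T cells and NK cells toward them. CXCL16 is made as a membrane protein, chiefly by macrophages and dendritic cells, and is also shed as a soluble attractant. CXCR6, its receptor, marks effector and tissue-resident T cells and NKT cells. In tumours both axes are studied for the entry and the retention of T cells. A bulk library mixes all cells of a tumour, so fewer cells of a type and less RNA per cell cannot be told apart in any value given here.

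Cxcl9, Cxcl10 and Cxcl11 lie side by side on the minus strand of chromosome 5 (GRCm38, GENCODE annotation), at 92321347 to 92328079, 92346638 to 92348889 and 92359544 to 92365485. Cxcl11 is annotated as a polymorphic pseudogene on the C57BL/6 reference, whereas these tumours were of the BALB/c strain. Cxcr3 lies on chromosome X at 101731535 to 101734269 on the minus strand. Cxcl16 lies on chromosome 11 at 70453983 to 70459984 on the minus strand, and Cxcr6 on chromosome 9 at 123806475 to 123811760 on the plus strand. Genes on the opposite strand overlap all but Cxcl9 and Cxcr3, and no source used here states the strand setting of the counting. The overlapping genes were Art3 (over Cxcl10 and Cxcl11, mean 1.61 CPM), Zmynd15 (over Cxcl16, mean 5.28 CPM), the nearly silent pseudogene Gm2673 (over Cxcl11) and Fyco1 (over Cxcr6). Fyco1 averaged 38.9 CPM with a range of 28.1 to 57.6 CPM, far narrower than that of Cxcr6 given below.

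The promoters of the clustered ligands are shown because the 3 ligands varied together across tumours and the windows of Cxcl10 and Cxcl9 differ in the motifs they hold. The 250 bases before the annotated start of Cxcl10 (RefSeq, GRCm38.p6, chr5:92348890-92349139, minus strand) hold 3 matches in capitals: a run like the interferon-stimulated response element (GAAA, any 2 bases, GAAA), then 2 matches to the NF-kB consensus. The matching window of Cxcl9 (chr5:92328080-92328329, minus strand) holds neither, and neither window holds the gamma-activated site-like run TTCNNNGAA.
Cxcl10: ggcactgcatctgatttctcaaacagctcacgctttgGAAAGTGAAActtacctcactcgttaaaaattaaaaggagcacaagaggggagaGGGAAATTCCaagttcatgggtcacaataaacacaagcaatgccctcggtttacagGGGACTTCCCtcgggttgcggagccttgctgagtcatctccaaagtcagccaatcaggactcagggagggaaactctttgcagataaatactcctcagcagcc
Cxcl9: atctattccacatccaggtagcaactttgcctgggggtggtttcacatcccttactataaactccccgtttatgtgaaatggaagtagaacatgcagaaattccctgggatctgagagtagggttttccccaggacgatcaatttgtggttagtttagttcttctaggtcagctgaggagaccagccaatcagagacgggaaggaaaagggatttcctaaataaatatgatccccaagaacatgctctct
Both strands were searched, and none of the matches overlap. Of 32851 annotated promoters of the same length, 2.98% hold the first run, 3.90% the NF-kB consensus and 7.02% the gamma-activated site-like run. The windows of Cxcr3 and Cxcr6 hold none of them, and Cxcl11 and Cxcl16 have no entry in the promoter table. A match is a run of letters and not a measured binding site.

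Cxcl9 was the most abundant of the 6 transcripts, with a mean of 426 ± 313 CPM over the 49 tumours (SD). The library kit reads a single tag near the 3′ end of each transcript, so CPM does not scale with transcript length. Next came Cxcl10 at 140.4 ± 101 CPM, Cxcl11 at 90.3 ± 70.9 CPM and Cxcl16 at 84.1 ± 50.9 CPM. The receptors were low, with Cxcr6 at 14.7 ± 18.01 CPM and Cxcr3 at 4.63 ± 4.37 CPM. Cxcl11 and Cxcl16 were close, with medians of 69.5 and 71.35 CPM in the opposite order to their means. Within single tumours, Cxcl9 exceeded Cxcl10 in 43 of 49, Cxcl10 exceeded Cxcl11 in 43 of 49, Cxcl16 exceeded Cxcr6 in 49 of 49, and Cxcr6 exceeded Cxcr3 in 42 of 49. Counts behind these values ran from 153 to 12466 for Cxcl9 but from 0 to 138 for Cxcr3, so Cxcr3 is the least precise.

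Cxcl9 was widest among tumours given the antibody alone. In the 12 combination R tumours it ran from 83.8 CPM through a median of 651 CPM to 1149 CPM, and the 4 combination NR tumours had 170.1, 513, 59.5 and 452 CPM. The 4 anti-PD-1 R tumours had 213, 18.96, 651 and 1140.0 CPM, and the 13 anti-PD-1 NR tumours ran from 39.8 CPM through a median of 139.8 CPM to 814 CPM. Celecoxib tumours ran from 98.2 CPM through a median of 406 CPM to 1038 CPM, and vehicle tumours from 116 CPM through a median of 386 CPM to 594 CPM. All groups overlapped. Anti-PD-1 tumours fell on both sides of the vehicle range, 7 of 17 below its lowest tumour and 5 of 17 above its highest, while 2 of 16 combination tumours lay below that range and 7 of 16 above it.

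Cxcl10 showed the same wide spread at a lower level. The 12 combination R tumours ran from 27.7 CPM through a median of 159 CPM to 486 CPM, and the 4 NR tumours had 56.3, 110.0, 52.5 and 135 CPM. Under anti-PD-1 alone the 4 R tumours had 35.2, 9.54, 349 and 314 CPM, against 53.2 to 357 CPM with a median of 94.4 CPM in the 13 NR tumours. Celecoxib tumours ran from 91.9 CPM through a median of 115 CPM to 360.3 CPM, and vehicle tumours from 26.3 CPM through a median of 111 CPM to 149 CPM. The anti-PD-1 R group held the lowest tumour of the study and 2 tumours above the vehicle range, and every group overlapped the others. The celecoxib maximum is replicate 4, which stood apart from the other 6 celecoxib tumours.

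Cxcl11, the ligand with the highest affinity for CXCR3, followed Cxcl10. Among combination tumours, the 12 R tumours ran from 8.85 CPM through a median of 143 CPM to 296 CPM, and the 4 NR tumours had 45.9, 92.5, 37.2 and 91.3 CPM. The 4 anti-PD-1 R tumours had 18.2, 2.73, 169 and 303 CPM, and the 13 NR tumours ran from 19.3 CPM through a median of 50.1 CPM to 217 CPM. Celecoxib tumours ran from 33.4 to 195 CPM with a median of 78.9 CPM, and vehicle tumours from 14.8 to 106 CPM with a median of 52.5 CPM. Above the highest vehicle tumour lay 9 of 12 combination R tumours, none of the 4 combination NR tumours, 2 of 4 anti-PD-1 R tumours, 3 of 13 anti-PD-1 NR tumours and 2 of 7 celecoxib tumours. The same anti-PD-1 R tumours were high or low for all 3 ligands: replicates 15 and 17 were high, and replicate 14 was the lowest tumour of the study for each. Replicates 14 and 15 are both among the libraries with high muscle, skin or fat markers.

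**Figure D1:**
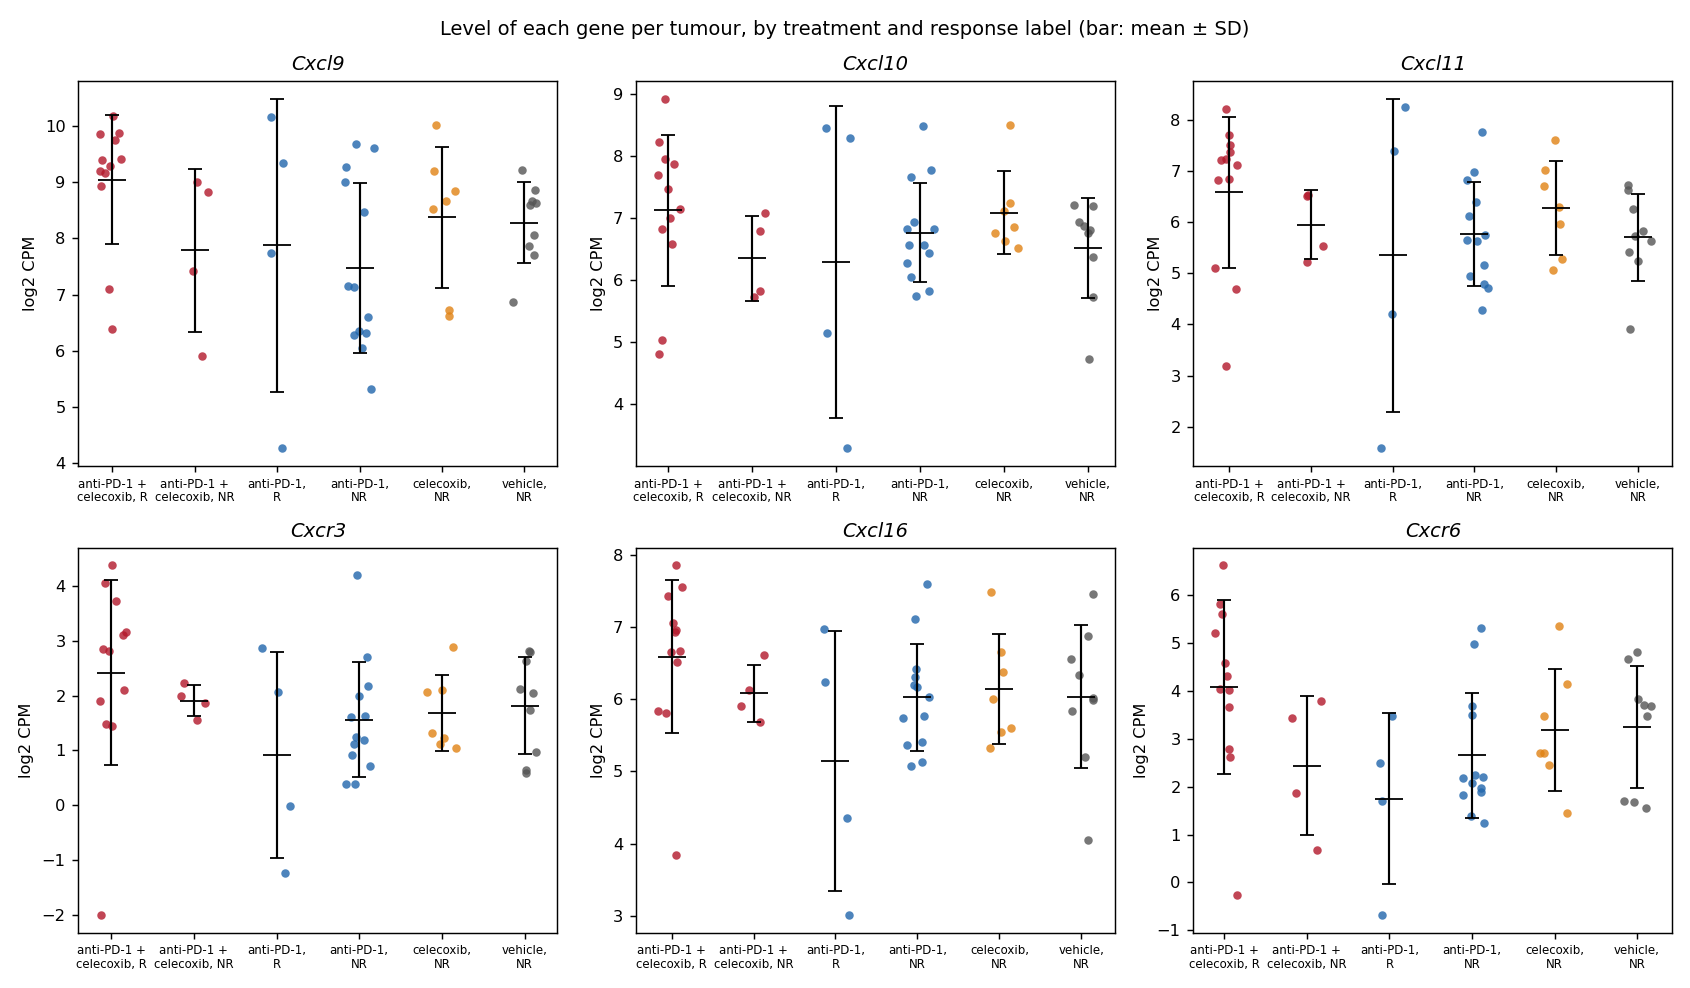
Level of each gene in each of the 49 tumours (y axis: log2 CPM, prior count 2; x axis: treatment with response label; points: tumours; bars: mean ± SD). Every group overlaps every other for each gene, combination R tumours have the highest mean for each, and the 4 anti-PD-1 R tumours spread widely.

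Cxcr3 was low throughout. Its level in the 12 combination R tumours ran from 0 CPM through a median of 6.89 CPM to 20.5 CPM, and the 4 combination NR tumours had 3.39, 3.73, 2.68 and 4.45 CPM. The tumour at 0 (replicate 15) had no count, which at its depth allows a level of up to 0.435 CPM (3 counts, counting error only). It is among the libraries with high muscle, skin or fat markers, with a muscle marker mean of 6.99 log2 CPM. The 4 anti-PD-1 R tumours had 0.177, 0.743, 3.94 and 7.04 CPM, against 1.05 to 18.2 CPM with a median of 2.13 CPM in the 13 NR tumours. Celecoxib tumours ran from 1.82 to 7.16 CPM with a median of 2.25 CPM, and vehicle tumours from 1.25 to 6.76 CPM with a median of 3.89 CPM. Of the combination R tumours, 7 of 12 lay above the highest vehicle tumour, as did 1 of 4 anti-PD-1 R, 1 of 13 anti-PD-1 NR and 1 of 7 celecoxib tumours.

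Cxcl16 varied least of the 6 genes. Combination R tumours ran from 14.1 CPM through a median of 112 CPM to 231 CPM, and the 4 combination NR tumours had 69.8, 51.02, 59.4 and 97.4 CPM. The 4 anti-PD-1 R tumours had 20.1, 7.81, 74.98 and 126 CPM, and the 13 NR tumours ran from 33.4 CPM through a median of 65.04 CPM to 193 CPM. Celecoxib tumours ran from 39.7 to 179 CPM with a median of 63.8 CPM, and vehicle tumours from 16.3 to 176 CPM with a median of 64.7 CPM. The highest vehicle tumour was exceeded by 2 of 16 combination tumours, 1 of 17 anti-PD-1 tumours and 1 of 7 celecoxib tumours.

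Cxcr6 varied most, over a 266-fold range between tumours. The 12 combination R tumours ran from 0.581 CPM through a median of 17.95 CPM to 98.9 CPM, and the 4 combination NR tumours had 3.39, 10.5, 1.34 and 13.7 CPM. The 4 anti-PD-1 R tumours had 3.005, 0.372, 5.39 and 10.97 CPM, against 2.12 to 39.6 CPM with a median of 4.30 CPM in the 13 NR tumours. Celecoxib tumours ran from 2.48 to 40.9 CPM with a median of 6.23 CPM, and vehicle tumours from 2.70 to 28.1 CPM with a median of 12.7 CPM. Tumours above the vehicle range were 4 of 12 combination R, 2 of 13 anti-PD-1 NR and 1 of 7 celecoxib tumours. None of the 4 combination NR and none of the 4 anti-PD-1 R tumours lay there.

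On the log2 scale the SD within the 6 groups of treatment and response was 0.97 for Cxcl16, 1.10 for Cxcl10, 1.22 for Cxcr3, 1.34 for Cxcl11, 1.38 for Cxcl9 and 1.49 for Cxcr6. Group membership accounted for between 7.82% of the variance (Cxcl10) and 19.8% (Cxcr6). Any split of tumours into 6 groups takes up some variance by chance alone, and these shares are not corrected for that. They therefore cannot be read as variance due to treatment or response. Combination R tumours had the highest group mean log2 CPM for each of the 6 genes, and anti-PD-1 R tumours the lowest for each gene but Cxcl9, whose lowest mean was that of anti-PD-1 NR tumours. The scale matters here. By mean CPM, anti-PD-1 R tumours stood below combination R tumours only for Cxcl10 (177 against 182 CPM) and Cxcl11 (123 against 132 CPM). The SD within groups is the spread of single tumours and not the error of a mean. In the order of group means of each gene, every gap between neighbours was below this SD, which does not show that groups are alike. For Cxcr6 that order was combination R (4.09 ± 1.82), vehicle (3.24 ± 1.27), celecoxib (3.18 ± 1.28), anti-PD-1 NR (2.66 ± 1.31), combination NR (2.44 ± 1.45) and anti-PD-1 R (1.75 ± 1.78, mean log2 CPM ± SD). For Cxcr3 it was combination R (2.42 ± 1.69), combination NR (1.91 ± 0.28), vehicle (1.82 ± 0.89), celecoxib (1.68 ± 0.69), anti-PD-1 NR (1.56 ± 1.05) and anti-PD-1 R (0.92 ± 1.88).

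The design asks first whether adding celecoxib to anti-PD-1 changes the tumour. All 6 genes were higher in combination than in anti-PD-1 tumours, and none passed an adjusted p of 0.05 in edgeR's quasi-likelihood test over all genes (Benjamini-Hochberg). Cxcr6 averaged 23.2 ± 25.95 CPM in combination tumours and 8.63 ± 10.8 CPM in anti-PD-1 tumours (SD, n = 16 and 17), a log2 change of 1.44 (SE 0.50, 95% interval 0.43 to 2.45, edgeR p 0.00612, adjusted p 0.134). Cxcr3 averaged 6.71 ± 5.58 CPM in combination tumours and 3.602 ± 4.21 CPM in anti-PD-1 tumours, a log2 change of 0.89 (SE 0.40, 95% interval 0.07 to 1.70, edgeR p 0.0328, adjusted p 0.242). The ligands differed less, with log2 changes of 0.70 for Cxcl9 (SE 0.43), 0.57 for Cxcl16 (SE 0.31), 0.49 for Cxcl11 (SE 0.40) and 0.19 for Cxcl10 (SE 0.35). Their intervals include 0, and that of Cxcl9 reaches 1.56. Leaving out combination replicate 13 puts Cxcl10 at -0.02.

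These values stand against a broad background. Over all genes, 69 of 13726 (0.503%) passed the adjusted limit in this comparison, and 2359 (17.2%) had an unadjusted p under 0.05, as 2 of the 6 genes did. DESeq2 and limma-voom called 0 of 6 as well. Without anti-PD-1 replicate 2, the anti-PD-1 tumour with the highest Cxcr3 and Cxcr6, the adjusted p was 0.051 for Cxcr6 (log2 change 1.78) and 0.0615 for Cxcr3 (1.28, edgeR), the smallest values for either gene in any fit. Without combination replicate 1 the Cxcr6 change was 1.09, and without the 13 libraries with other tissue it was 1.16 (adjusted p 0.395).

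T cell markers moved with the receptors. All 16 genes of a T cell list had a positive change between combination and anti-PD-1 tumours, with a median of 1.10 against a median of -0.002 over all genes tested, though 0 of 16 passed the limit in edgeR (14 had an unadjusted p under 0.05). The mean of the list was 2.78 log2 CPM in combination tumours (range -0.25 to 4.82) and 1.69 in anti-PD-1 tumours (range -0.87 to 4.01). Each of Cd3d, Cd8a, Lat, Cd6, Cd4 and Trac had no count in at least 1 of the 49 tumours. With the list mean as a covariate, the log2 changes were -0.13 for Cxcr6, -0.02 for Cxcr3, 0.03 for Cxcl9, -0.22 for Cxcl16, -0.23 for Cxcl11 and -0.58 for Cxcl10. The macrophage list was at 7.88 log2 CPM in combination tumours and 7.49 in anti-PD-1 tumours, and with it as a covariate Cxcr6 was at 0.70 and Cxcr3 at 0.37. All 14 skeletal muscle genes were also higher in combination tumours (median 1.54, 0 passed), and with the muscle list as a covariate Cxcr6 was at 1.499 and Cxcr3 at 0.95.

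Against vehicle, all 6 genes were higher with the combination and none passed the limit (10 of 13726 genes did, 0.0729%). Cxcl11 averaged 116 ± 77.0 CPM in combination tumours, against 59.3 ± 29.3 CPM with vehicle, which is a log2 change of 0.96 (SE 0.50, edgeR p 0.058, adjusted p 0.340). The other changes were 0.90 for Cxcr6 (SE 0.61), 0.79 for Cxcr3 (SE 0.50), 0.71 for Cxcl9 (SE 0.52), 0.64 for Cxcl10 (SE 0.43) and 0.41 for Cxcl16 (SE 0.37). None of the 6 had an unadjusted p under 0.05, against 15.4% of all genes. Without combination replicate 1, Cxcr6 was at 0.52 and Cxcl16 at 0.27, and without combination replicate 13, Cxcl10 was at 0.42. T cell genes were positive in 16 of 16 (median 0.90) and macrophage genes in 11 of 12 (median 0.59), with none passing. Skeletal muscle genes were positive in 14 of 14 (median 3.47, 14 with an unadjusted p under 0.05, none passing). With the T cell list as a covariate, Cxcr6 was at -0.33, Cxcl16 at -0.049 and Cxcl10 at -0.047.

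Anti-PD-1 alone gave no common direction. Cxcl11 changed by 0.47 (SE 0.48), Cxcl10 by 0.45 (SE 0.42) and Cxcl9 by 0.00 (SE 0.50) against vehicle, and Cxcr3 by -0.10 (SE 0.48), Cxcl16 by -0.16 (SE 0.36) and Cxcr6 by -0.54 (SE 0.58). None passed (12 of 13726 genes did, 0.0874%) and none had an unadjusted p under 0.05 (3.48% of genes did). Cxcl9 shows how the summary matters: its mean was 342 ± 343 CPM in anti-PD-1 tumours and 342 ± 148 CPM in vehicle tumours, while its median was 141 CPM in anti-PD-1 tumours and 386 CPM in vehicle tumours. On the log2 scale limma-voom put Cxcl9 at -0.71 and Cxcl11 at -0.025. Single tumours moved these values: without anti-PD-1 replicate 2, Cxcr3 was at -0.52, Cxcr6 at -0.91 and Cxcl10 at 0.30, and without anti-PD-1 replicate 17, Cxcl11 was at 0.19 and Cxcl9 at -0.23. Leaving out vehicle replicate 5 put Cxcl16 at 0.084 and Cxcr6 at -0.31, leaving out vehicle replicate 7 put Cxcr3 at 0.042, and Cxcl9 turned direction in 16 of the 49 fits without a tumour.

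Celecoxib alone changed Cxcl11 by 0.63 (SE 0.58), Cxcl10 by 0.58 (SE 0.50) and Cxcl9 by 0.36 (SE 0.61) against vehicle, and Cxcr6 by 0.06 (SE 0.72), Cxcl16 by 0.03 (SE 0.45) and Cxcr3 by -0.20 (SE 0.59). No gene of the 13726 passed in edgeR (0.0%), 314 (2.29%) had an unadjusted p under 0.05, and none of the 6 was among them. DESeq2 called 7 genes and limma-voom 0. Without celecoxib replicate 4, Cxcl9 was at -0.02, Cxcl10 at 0.21, Cxcl11 at 0.33, Cxcl16 at -0.30 and Cxcr6 at -0.61. Intervals for a single gene were wide: that of Cxcr6 ran from -1.38 to 1.504. In the comparison of the combination with celecoxib, 0 of 6 passed (smallest edgeR p 0.0801, 5 of 13726 genes called, 0.0364%, and 4.92% with an unadjusted p under 0.05). In the test of whether the effect of celecoxib differed with and without anti-PD-1, 0 of 6 passed (smallest edgeR p 0.125, 0 genes called, 0.0%, 413 or 3.01% with an unadjusted p under 0.05, 2 by DESeq2 and 1 by limma-voom).

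**Figure D2:**
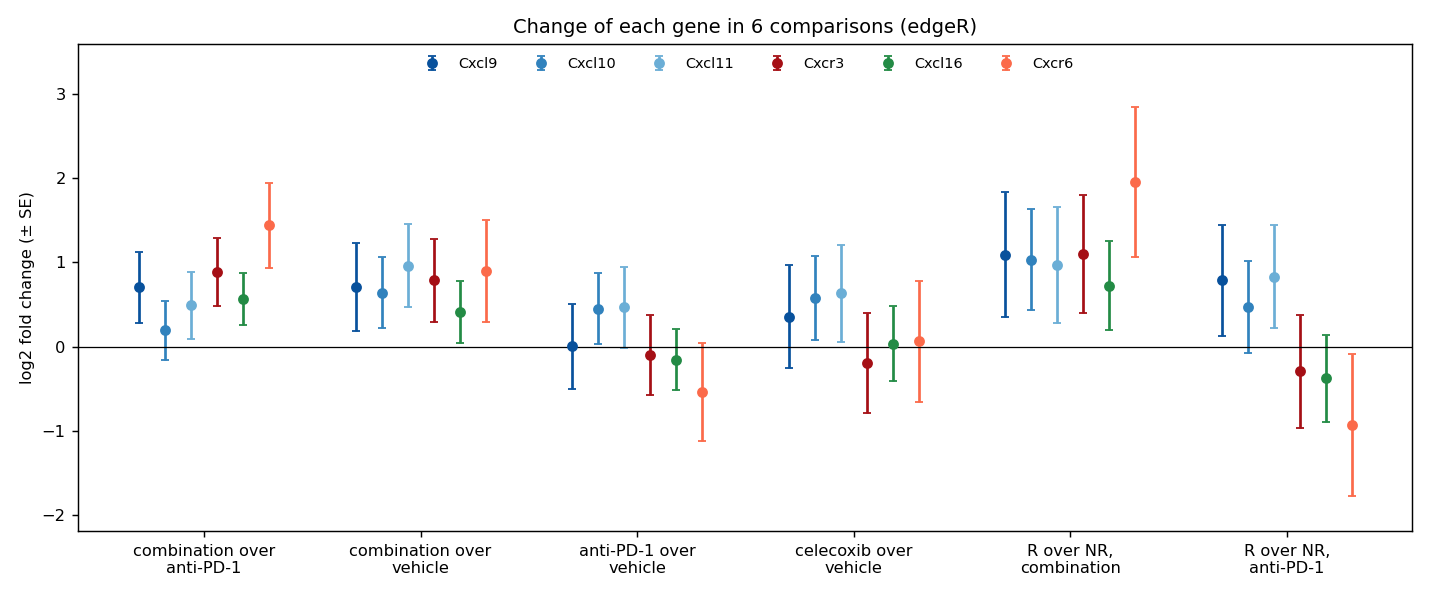
Log2 fold change of each gene (y axis, ± SE from edgeR) in 6 comparisons (x axis, the group named first over the group named after it). All 6 genes are above 0 for the combination over anti-PD-1, the combination over vehicle and R over NR with the combination, while R over NR under anti-PD-1 has the CXCR3 ligands above 0 and the other genes below. No change passed the limit of 0.05, and that last pattern is lost in limma-voom (Cxcl10 -0.47, Cxcl11 -0.35) and without anti-PD-1 replicate 17 (Cxcl11 -0.12).

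Response labels were compared within each antibody treatment. With the combination, all 6 genes were higher in R than in NR tumours. Cxcr6 averaged 28.5 ± 28.02 CPM in R tumours and 7.23 ± 5.83 CPM in NR tumours (SD, n = 12 and 4), a log2 change of 1.96 (SE 0.89, edgeR p 0.0327, adjusted p 0.529). The others changed by 1.10 (Cxcr3, SE 0.70), 1.10 (Cxcl9, SE 0.74), 1.04 (Cxcl10, SE 0.60), 0.97 (Cxcl11, SE 0.69) and 0.73 (Cxcl16, SE 0.53). None passed, nor did any of 14247 genes in edgeR (0.0%), although 1298 (9.11%) had an unadjusted p under 0.05, as 1 of the 6 did. DESeq2 called 17 genes and limma-voom 0, none of them among the 6. T cell genes moved the same way, 16 of 16 positive with a median of 1.38 and list means of 3.03 log2 CPM in R tumours and 2.02 in NR tumours, and with that list as a covariate Cxcr6 was at 0.30. Muscle and fat markers were higher in these R tumours too (14 of 14 and 7 of 7 genes, medians 3.43 and 2.62), and with the muscle list as a covariate Cxcr6 was at 2.12.

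Under anti-PD-1 alone the direction depended on the scale for Cxcl10 and Cxcl11, whose mean CPM was higher in R than in NR tumours while their mean log2 CPM was lower (6.30 in R and 6.77 in NR tumours for Cxcl10, 5.36 in R and 5.77 in NR tumours for Cxcl11). In the edgeR fit R tumours had more Cxcl11 (0.83, SE 0.61), Cxcl9 (0.79, SE 0.66) and Cxcl10 (0.47, SE 0.54) than NR tumours, and less Cxcr3 (-0.30, SE 0.67), Cxcl16 (-0.38, SE 0.51) and Cxcr6 (-0.93, SE 0.85). None passed, no gene of 14247 did in edgeR, DESeq2 or limma-voom (0.0%), and 923 (6.48%) had an unadjusted p under 0.05, none of the 6 among them. These values rest on single tumours: without replicate 17 the change was 0.02 for Cxcl9, -0.12 for Cxcl11, -1.14 for Cxcr3, -1.10 for Cxcl16 and -1.70 for Cxcr6, and without replicate 15 it was -0.08 for Cxcl10. Without replicate 14 it was 1.17 for Cxcl9, 1.22 for Cxcl11 and -0.02 for Cxcl16, and without NR replicate 2 it was 0.22 for Cxcr3. limma-voom, which works on the log2 scale, put Cxcl10 at -0.47 and Cxcl11 at -0.35. Interferon-gamma targets were higher in 22 of 26 tested genes (median 0.52) and T cell genes in 5 of 16 (median -0.20). Macrophage genes were higher in 1 of 12 (median -0.42) and dendritic cell genes in 2 of 10 (median -0.35), and none passed in any of these 4 lists.

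The difference of the R effects between the combination and anti-PD-1 was 2.89 for Cxcr6 (SE 1.22, edgeR p 0.0226, adjusted p 0.999), 1.40 for Cxcr3 (SE 0.97), 1.10 for Cxcl16 (SE 0.74), 0.57 for Cxcl10 (SE 0.81), 0.31 for Cxcl9 (SE 0.98) and 0.15 for Cxcl11 (SE 0.92). These differences also moved with single tumours: without anti-PD-1 replicate 17 they were 1.09 for Cxcl9, 1.10 for Cxcl11, 1.83 for Cxcl16 and 2.24 for Cxcr3, and without replicate 14 they were -0.095 for Cxcl9, -0.26 for Cxcl11, 0.16 for Cxcl10 and 0.73 for Cxcl16. Cxcr3 was at 0.87 without replicate 2 and Cxcl10 at 1.12 without replicate 15. No gene passed (0.0%), and 329 (2.31%) had an unadjusted p under 0.05. DESeq2 called 2 genes and limma-voom 0. Among R tumours only, the combination exceeded anti-PD-1 by 2.49 for Cxcr6 (SE 0.92, edgeR p 0.0096, adjusted p 0.658), 1.33 for Cxcr3 (SE 0.71) and 1.01 for Cxcl16 (SE 0.54), while Cxcl9, Cxcl11 and Cxcl10 were at 0.34, 0.09 and 0.04. Without anti-PD-1 replicate 17, Cxcl9 was at 1.12, Cxcl11 at 1.05, Cxcr3 at 2.17 and Cxcl16 at 1.74. Without replicate 14, Cxcl9 was at -0.055, Cxcl10 at -0.36, Cxcl11 at -0.31 and Cxcl16 at 0.64. Without replicate 15, Cxcl10 was at 0.60. In the fits that each left out a tumour, Cxcr6 stayed between 2.11 and 3.26 and Cxcr3 between 0.96 and 2.17. The direction of Cxcl9, Cxcl10 and Cxcl11 thus rests on single tumours, while Cxcr6, Cxcr3 and Cxcl16 kept theirs in these fits. No gene passed there (0.0% of 14247, 7.38% with an unadjusted p under 0.05, and 0 by DESeq2 or limma-voom). Among NR tumours 0 of 6 passed (smallest edgeR p 0.369, 0.0281% of genes called, 5.73% with an unadjusted p under 0.05), nor with R against NR averaged over both antibody treatments (smallest edgeR p 0.0572, 0.0491% called). The comparisons of this paragraph share tumours with those before it.

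Ligand and receptor were then set against each other tumour by tumour, since a receptor can meet its ligand only where both are present. Across 49 tumours, after subtracting the mean of each of the 6 groups, Cxcl16 and Cxcr6 had a Pearson r of 0.86 (Spearman 0.82) and a permutation p, adjusted over 40 coefficients, of 4.44e-05 for both. Cxcr3 had an r of 0.67 with Cxcl10 (Spearman 0.64), 0.66 with Cxcl11 (0.55) and 0.55 with Cxcl9 (0.57), with adjusted permutation p-values of at most 0.000327. The unadjusted permutation p was 1e-05, the smallest that 100000 resamples can give, for Cxcl16 with Cxcr6. Without the 2 tumours farthest from the median of the ligand, r was 0.81 for Cxcl16 with Cxcr6, 0.63 for Cxcl10, 0.58 for Cxcl11 and 0.61 for Cxcl9 with Cxcr3. The members of a pair share library, depth and immune content of the tumour.

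**Figure D3:**
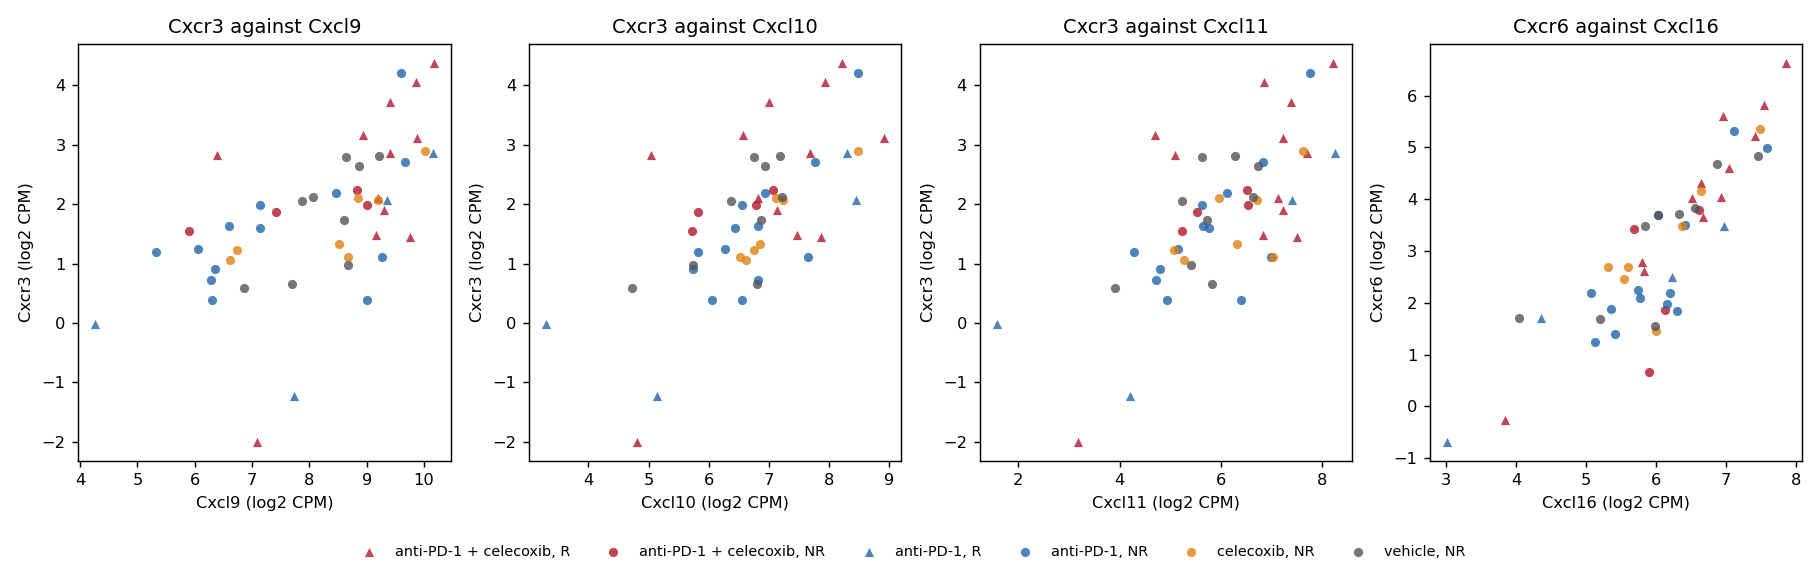
Receptor against ligand in each of the 49 tumours (both axes: log2 CPM, prior count 2; colour: treatment; triangles: R; circles: NR) for the 4 ligand and receptor pairs. Cxcr6 tracks Cxcl16 most closely (Pearson r 0.86 with group means subtracted). Cxcr3 has its lowest Pearson r with Cxcl9 (0.55), but its lowest Spearman coefficient with Cxcl11 (0.55, against 0.57 with Cxcl9).

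The Cxcl16 and Cxcr6 relation held in every treatment, with an r of 0.90 in 16 combination tumours (adjusted permutation p 4.44e-05), 0.87 in 17 anti-PD-1 tumours (4.44e-05), 0.83 in 7 celecoxib tumours (adjusted exact permutation p 0.034) and 0.82 in 9 vehicle tumours (0.00592). In celecoxib tumours the Spearman coefficient was 0.75 with an adjusted exact permutation p of 0.078, and r was 0.67 without the 2 farthest tumours. Cxcr3 with Cxcl10 had an r of 0.58 in combination tumours (adjusted permutation p 0.029), 0.77 in anti-PD-1 tumours (0.00163), 0.95 in celecoxib tumours (exact, 0.00248) and 0.68 in vehicle tumours (exact, 0.0427). The coefficients for Cxcl11 with Cxcr3 were 0.63, 0.73, 0.63 and 0.63 in the same groups, with adjusted permutation p-values of 0.0231, 0.00311, 0.147 and 0.0746 (exact in the last 2). For Cxcl9 with Cxcr3 they were 0.50, 0.55, 0.80 and 0.71, with adjusted permutation p-values of 0.0659, 0.0334, 0.0492 and 0.0427 (exact in the last 2). By rank several were lower and did not pass. In combination tumours the Spearman coefficient with Cxcr3 was 0.43 for Cxcl10, 0.35 for Cxcl11 and 0.52 for Cxcl9 (adjusted permutation p 0.11, 0.189 and 0.0524), and in vehicle tumours it was 0.63 for Cxcl10 and 0.55 for Cxcl11 (adjusted exact permutation p 0.0869 and 0.143). In celecoxib tumours it was 0.46 for Cxcl11 (adjusted exact permutation p 0.302). The Spearman coefficients of the other pairs and groups passed, apart from that of Cxcl16 in celecoxib tumours given above.

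Several of these rest on few tumours. Without the 2 tumours farthest from the median of the ligand, r in vehicle tumours was 0.24 for Cxcl10, 0.29 for Cxcl11 and 0.31 for Cxcl9 with Cxcr3. It was 0.41 for Cxcl11 and 0.47 for Cxcl10 with Cxcr3 in combination tumours, 0.43 for Cxcl9 in anti-PD-1 tumours and 0.15 for Cxcl11 in celecoxib tumours. Over the 49 tumours the relations changed once the T cell list mean was regressed out as well: r was -0.11 for Cxcl16 with Cxcr6, 0.04 for Cxcl10 and 0.01 for Cxcl11 with Cxcr3, and -0.53 for Cxcl9 with Cxcr3 (adjusted permutation p 0.007). The list mean itself had an r of 0.95 with Cxcr6, 0.92 with Cxcl16, 0.86 with Cxcl9 and 0.82 with Cxcr3. Regressing it out removes much of the variation of both genes of a pair. Why the coefficients changed, and what those left over mean, was not tested. Without the 13 libraries with other tissue the 4 coefficients over the remaining 36 tumours were 0.81, 0.73, 0.71 and 0.60.

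Ligand over receptor was also taken as a difference of log2 CPM in each tumour. Cxcl16 exceeded Cxcr6 by 2.499 ± 0.82 log2 units in combination R tumours, 3.64 ± 1.36 in combination NR tumours, 3.39 ± 0.51 in anti-PD-1 R tumours, 3.37 ± 0.80 in anti-PD-1 NR tumours, 2.95 ± 0.77 in celecoxib tumours and 2.79 ± 0.72 in vehicle tumours (SD). Combination R tumours thus had the most Cxcr6 relative to Cxcl16, with overlap of all groups. Cxcl9 exceeded Cxcr3 by 6.63 ± 1.45 log2 units in combination R tumours, 5.87 ± 1.19 in combination NR tumours, 6.95 ± 1.95 in anti-PD-1 R tumours, 5.92 ± 1.30 in anti-PD-1 NR tumours, 6.69 ± 0.82 in celecoxib tumours and 6.46 ± 0.63 in vehicle tumours. These differences were not tested.

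The 3 CXCR3 ligands tracked each other more closely than they tracked the receptor, with an r of 0.89 for Cxcl10 and Cxcl11, 0.86 for Cxcl9 and Cxcl11 and 0.83 for Cxcl9 and Cxcl10 (49 tumours, group means subtracted, as a description). Cxcr3 had a higher r with Cxcl16 (0.82) and with Cxcr6 (0.75) than with any of its own ligands. Cxcr6 had an r of 0.77 with Cxcl9, 0.71 with Cxcl10 and 0.64 with Cxcl11. For Cxcr3 these were 0.55, 0.67 and 0.66. The r between Cxcl16 and Cxcl9, Cxcl10 or Cxcl11 was 0.77, 0.80 and 0.78. All 15 pairs were positive.

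The genes whose levels were most like each member were found among 10161 genes with a mean of at least 5 CPM, by Pearson r over the same 49 tumours. For Cxcl9 they were Iigp1, Serpina3g, Igtp, Gbp8 and Gbp4 (r from 0.96 to 0.97), of which Iigp1, Igtp and the Gbp genes encode interferon-inducible GTPases. For Cxcl10 they were Themis2, Ifit1, Rnf213, Usp18 and Icam1 (0.91 to 0.94), with Ifit1 and Usp18 known as interferon-stimulated genes and Icam1 as an adhesion molecule. Cxcl11 was closest to Ifi44, Scimp, Ifih1, Ncr1 and Gzma (0.92 to 0.94), where Ifih1 is a sensor of viral RNA, Ncr1 an NK cell receptor and Gzma a granzyme of cytotoxic cells. Cxcr3 was closest to Cyth4, Cfp, Wdfy4, Cd72 and Lcp1 (0.88 to 0.90), none of which is T cell-specific: Cfp encodes the complement factor properdin and Lcp1 a leukocyte plastin.

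Cxcl16 was closest to Ptpn18, Nckap1l, Adgre1, Ms4a7 and Gpr65 (0.95 to 0.97), with Adgre1 encoding the macrophage antigen F4/80. Cxcr6 was closest to Cd3g, Entpd1, Cd8a, Cd8b1 and Pdcd1 (0.91 to 0.93), which encode a chain of the T cell receptor complex, CD39, both chains of CD8 and PD-1 itself. The median r of all genes with any member lay between -0.08 and -0.03. Against the means of the marker lists, Cxcr6 had its highest r with T cells (0.95), Cxcl16 with macrophages (0.94), ahead of other chemokines and receptors of T cell traffic (0.93) and T cells (0.92), Cxcl9 with interferon-gamma targets (0.95), and Cxcl11 and Cxcl10 with NK cells (0.91 and 0.87). Cxcr3 had its highest r with the chemokine receptor signalling list (0.89), and had 0.83 with macrophages, 0.82 with T cells and 0.82 with NK cells. Its r with interferon-gamma targets was the lowest of the 6, at 0.59.

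**Figure D4:**
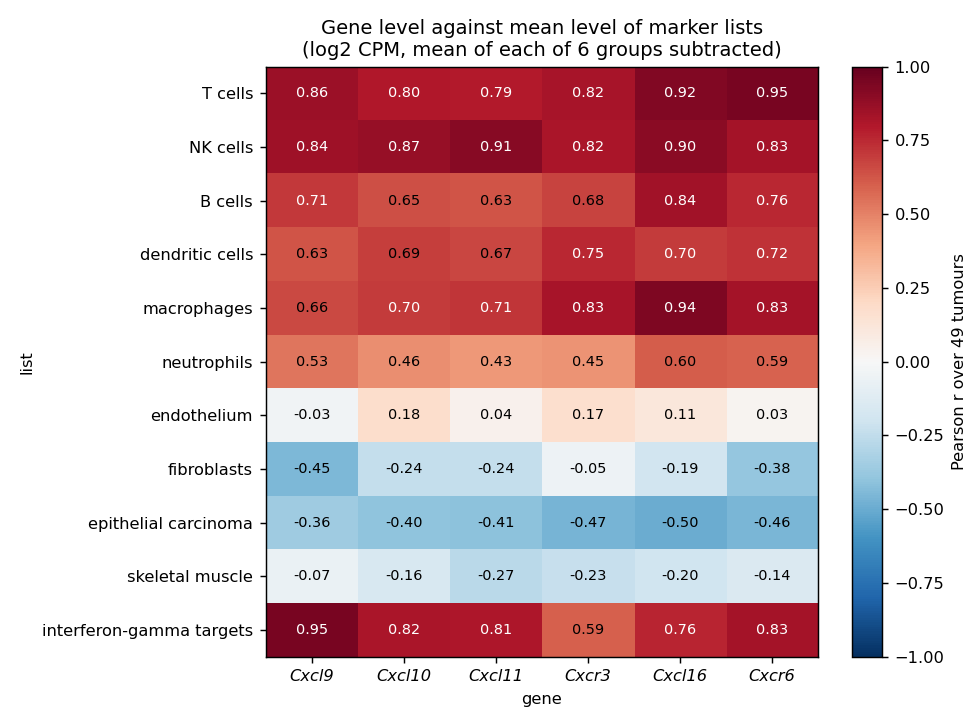
Pearson r (colour and printed value) between each gene (x axis) and the mean log2 CPM of marker and pathway lists (y axis) over 49 tumours, with the mean of each of the 6 groups subtracted. Values are high for immune lists and for interferon-gamma targets, from 0.43 to 0.95, and between -0.50 and 0.18 for endothelium, fibroblasts, epithelial carcinoma and skeletal muscle. The B cell row rests on Cd79b alone (mean 2.26 CPM). The neutrophil row rests on Csf3r, S100a9, S100a8 and Mmp8, each with a mean of at most 3.10 CPM.

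The genes around these axes were followed from 18 lists, here between combination and anti-PD-1 tumours. Interferon-gamma targets were positive in 26 of 26 tested genes (median 0.66) and the genes of interferon-gamma production and signalling in 15 of 15 (median 0.49), and 0 passed in either. B2m and H2-D1, parts of MHC class I, changed by 0.44 (SE 0.14) and 0.42 (SE 0.15), the transcription factor Irf1 by 0.83 (SE 0.26) and the kinase Jak1 by 0.18 (SE 0.09). Ifng itself, named after its value was seen, changed by 1.01 (SE 0.55).

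Among other chemokines and receptors of T cell traffic, 19 of 23 tested genes were positive (median 0.37) and 1 passed. Ccl4, a chemokine made by activated T cells, NK cells and macrophages, rose by 1.67 (SE 0.40, edgeR adjusted p 0.0372), while its relatives Ccl3 and Ccl1 changed by 1.64 (SE 0.49) and 1.69 (SE 0.48) and Xcl1, the ligand of XCR1, by 1.47 (SE 0.40), all with an adjusted p above the limit. The Ccl4 call was lost without the 13 libraries with other tissue (1.18, edgeR adjusted p 0.27) and with the T cell list as a covariate (0.71, edgeR adjusted p 0.174). It held in 3 of 9 alternatives and in 32 of 49 fits that each left out a tumour, with the largest adjusted p of those fits (0.0897) without combination replicate 16. In chemokine receptor signalling 17 of 24 genes were positive (median 0.33) and 1 passed: Ptk2b, a focal adhesion-related kinase, rose by 1.004 (SE 0.25, edgeR adjusted p 0.0417). That call was lost with the T cell list as a covariate (0.40, edgeR adjusted p 0.248) and without the 13 libraries (1.01, edgeR adjusted p 0.128). It likewise held in 3 of 9 alternatives and in 32 of 49 fits without a tumour, with a largest adjusted p of 0.114 among those fits (also without combination replicate 16). The Rac activators Elmo1, Dock2 and Prex1 changed by 0.70 (SE 0.21), 0.83 (SE 0.25) and 0.82 (SE 0.27) without passing.

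Residency and effector genes of Cxcr6-positive T cells were positive in 12 of 14 tested (median 0.38, 0 passed). The most abundant were Rbpj at -0.12 (SE 0.09) and Runx3 at 0.20 (SE 0.12). Effector genes, named after their values were seen, changed more: Prf1 by 1.90 (SE 0.54), Pdcd1 by 1.33 (SE 0.61) and Gzmb by 1.13 (SE 0.45). Besides Rbpj, only Bhlhe40 was negative (-0.15, SE 0.34). In chemokine processing and scavenging 4 of 11 were positive (median -0.12, 0 passed), led in level by Mmp14 at -0.21 (SE 0.11) and Sdc4 at 0.31 (SE 0.27). Both are named here by level, outside the naming rule given below. Of enzymes in that list that act on these ligands, named after their values were seen, the CXCL16 sheddases Adam10 and Adam17 changed by -0.03 (SE 0.09) and 0.25 (SE 0.11), and Dpp4, which trims CXCR3 ligands, by 0.44 (SE 0.27).

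Markers of other cells stood as follows in the same comparison. NK cell genes were positive in 8 of 8 tested (median 0.72), macrophage genes in 10 of 12 (0.47), dendritic cell genes in 6 of 10 (0.17), the 1 tested B cell gene at 0.64 and neutrophil genes in 2 of 4 (0.17), with 0 passing in each. Ly6g was at 0 in every tumour and Cd79a averaged 0.0063 CPM, so neutrophils and B cells are hardly measured. Endothelial genes were positive in 1 of 10 (median -0.27, with Robo4 called), fibroblast genes in 0 of 9 (-0.32), epithelial carcinoma genes in 0 of 4 (-0.80), skin genes in 1 of 2 (0.02) and adipocyte genes in 1 of 7 (-0.48). Their part in the levels of the 6 chemokine and receptor genes was not tested beyond the covariate fits given above.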

How the data were processed

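RNA of 49 CT26 tumours was sequenced from QuantSeq 3′ FWD libraries, made from transcript 3′ ends (per the labels' protocols). Raw counts per gene were deposited by the authors in a single table, and a second deposited table holds log2 values per gene for 16559 genes. In each library that log2 value equals log2 of the count plus 0.5 minus a constant, so the tests used the counts. The tools bcl2fastq, STAR, featureCounts and limma and the builds mm10 and GRCm38 are named, per the submitters' processing notes. No source used here states their versions, the strand setting or how multiply aligned reads were counted. Symbols and loci came from GENCODE on GRCm38.

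Groups came from the labels, and replicate numbers only name tumours. CPM and log2 CPM (prior count 2) used TMM library sizes. Changes were tested with edgeR 4.0.16 in R 4.3.3 (TMM, filterByExpr, robust quasi-likelihood fit, Benjamini-Hochberg over all genes, limit 0.05), the 4 treatments in 1 fit (13726 genes) and the 6 groups of treatment and response in another (14247 genes). All 6 genes passed the filter on low counts in both. Intervals of changes use the t distribution on residual degrees of freedom. Correlations of the 4 ligand and receptor pairs, in each treatment and pooled, gave 40 coefficients with two-sided permutation tests in scipy 1.17.1 (100000 resamples, exact under 10 tumours). The pipeline was tested on simulated data.

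The 6 genes, the 18 lists and the comparisons were chosen with earlier results of these data known. Genes were named by a rule: all members, up to 4 list genes with the smallest p where a list had a gene past the limit, otherwise the 2 most abundant of each pathway list, and the 5 genes most like each member. Alternatives were DESeq2 1.42.0, limma-voom 3.58.1, RLE normalization, no filter, the compared groups alone, the muscle, T cell or macrophage list as a covariate, removal of 13 libraries rich in other tissue (mean log2 CPM above 3 for muscle markers, or above 5 for those of skin or fat), and each tumour left out in turn. For correlations they were prior counts of 0.5 and 5, the T cell list regressed out, no centring and the same 13 libraries removed. Those for list genes and for counts of all genes were added after the data were seen.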

Additional observations from a re-analysis of the deposited data

Results flagged for a closer look

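Cxcl10 in celecoxib replicate 4 stood far from the other 6 celecoxib tumours. Its level was 8.49 log2 CPM, and the next highest tumour of that group was at 7.24 log2 CPM. The gap was 0.639 of the range of the group, above the 95% critical value of 0.568 for 7 tumours. Of 24 groups of 4 to 10 tumours examined, 1 met this rule, and chance alone meets it in about 1 of 20 groups.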

How the results depend on the processing

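In every one of the 12 comparisons, 0 of the 6 genes passed the limit in all 9 alternatives and in all 49 fits that left out a tumour (lowest and highest count 0), and the smallest adjusted p was 0.051 (Cxcr6, combination against anti-PD-1, without anti-PD-1 replicate 2). The changes of the 6 genes below turned direction in at least 1 alternative, and none had passed the limit. They come only from the comparisons whose changes are given above for each gene. Turns are not listed for combination against celecoxib or for the celecoxib effect with and without anti-PD-1. They are also not listed for NR tumours only or for the averaged R against NR. The cause of each was not tested.

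With the T cell list as a covariate, combination against anti-PD-1 gave Cxcl10 -0.58, Cxcl11 -0.23, Cxcl16 -0.22, Cxcr6 -0.13 and Cxcr3 -0.018. Combination against vehicle gave Cxcr6 -0.33, Cxcl16 -0.049 and Cxcl10 -0.047. Anti-PD-1 against vehicle gave Cxcl16 0.17 and Cxcr3 0.060. R against NR with the combination gave Cxcl16 -0.36, Cxcr3 -0.18 and Cxcl11 -0.0013. The difference of the R effects was -0.43 for Cxcl9 and -0.41 for Cxcl11. Among R tumours, combination against anti-PD-1 gave Cxcl10 -0.65, Cxcl11 -0.52 and Cxcl9 -0.44.

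With the macrophage list as a covariate, celecoxib against vehicle gave Cxcr6 -0.25 and Cxcl16 -0.12, and anti-PD-1 against vehicle gave Cxcl9 -0.26. Combination against vehicle gave Cxcr6 -0.21, Cxcl16 -0.21 and Cxcr3 -0.14, and combination against anti-PD-1 gave Cxcl10 -0.15. R against NR under anti-PD-1 gave Cxcr3 0.30. The difference of the R effects was -0.059 for Cxcl9 and -0.088 for Cxcl11. Among R tumours, combination against anti-PD-1 gave Cxcl10 -0.42, Cxcl11 -0.26 and Cxcl9 -0.10.

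Without the 13 libraries with other tissue, the difference of the R effects was -0.36 for Cxcl9 and -0.22 for Cxcl11. Among R tumours, combination against anti-PD-1 then gave Cxcl11 -0.095, Cxcl10 -0.077 and Cxcl9 -0.045. The libraries removed include anti-PD-1 R replicates 14 and 15, so only replicates 12 and 17 remained in that group. They also include combination R replicates 7, 13, 14 and 15 and combination NR replicate 2. In limma-voom, anti-PD-1 against vehicle gave Cxcl9 -0.71 and Cxcl11 -0.025, and R against NR under anti-PD-1 gave Cxcl10 -0.47 and Cxcl11 -0.35. Without a filter on low counts, anti-PD-1 against vehicle gave Cxcl9 -0.0055. The skin gene Sbsn in combination against celecoxib tumours was at 0.40 without the 13 libraries and at 0.39 in DESeq2.

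With the T cell list mean regressed out, r over all 49 tumours was -0.53 (Cxcl9), 0.038 (Cxcl10) and 0.010 (Cxcl11) with Cxcr3, and -0.11 for Cxcl16 with Cxcr6. In the same order it was -0.72 (past the limit, adjusted permutation p 0.0232), -0.44, 0.0052 and -0.036 in combination tumours and -0.46, 0.33, 0.10 and 0.13 in anti-PD-1 tumours. In celecoxib tumours it was -0.60, 0.67, -0.75 and -0.24, and in vehicle tumours -0.25 (Cxcl9), 0.45 (Cxcl10) and -0.63 (Cxcl16 with Cxcr6). Without the 13 libraries, relations that no longer passed were Cxcl10 (0.45) and Cxcl11 (0.47) with Cxcr3 in combination tumours, Cxcl9 in anti-PD-1 tumours (0.50), Cxcl10 in vehicle tumours (0.64) and Cxcl16 with Cxcr6 in celecoxib tumours (0.82), and Cxcl11 in celecoxib tumours newly passed (0.92). With a prior count of 5, Cxcl9 in celecoxib tumours (0.79) did not pass. The other Pearson coefficients kept direction and side of the limit. Of the Spearman coefficients, Cxcl9 with Cxcr3 newly passed in combination tumours (0.68, adjusted permutation p 0.038) and no longer passed in anti-PD-1 tumours (0.52) without the 13 libraries, and with the T cell list regressed out none passed but that of Cxcl9 over all tumours (-0.49).

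The count of all genes past the limit moved more. For combination against anti-PD-1 it was 69 in edgeR, 297 in DESeq2, 35 in limma-voom, 10 without the 13 libraries, 13 without combination replicate 16 and 449 without combination replicate 15. For combination against vehicle it was 10, with 610 without the 13 libraries, 67 in DESeq2, 3 in limma-voom, 157 without combination replicate 15 and 2 without vehicle replicate 3. For R against NR averaged over both antibody treatments it was 7, with 167 in DESeq2, 0 without anti-PD-1 replicate 4 and 25 without combination replicate 10. For anti-PD-1 against vehicle 12 genes passed, and 24 in DESeq2. For combination against anti-PD-1 among NR tumours 4 passed, 13 in DESeq2 and 1 without combination replicate 5. For combination against celecoxib 5 passed, with 124 without a filter on low counts and 0 without celecoxib replicate 3. For celecoxib against vehicle 0 passed, with 49 without a filter.

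No paired analysis was possible because the labels tie no tumour of one treatment to a tumour of another, and replicate numbers only follow the order of the labels. With 4 tumours in the smallest groups and at most 138 counts per tumour, small changes of Cxcr3 were not detectable.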

Other observations

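Robo4, an endothelial guidance receptor, fell by 0.91 on the log2 scale in combination against anti-PD-1 tumours (SE 0.21, edgeR adjusted p 0.0336), a call that held in 7 of 9 alternatives and 38 of 49 fits that left out a tumour, with 0.0765 as the largest adjusted p among those fits (without combination replicate 16). Without the 13 libraries with other tissue its adjusted p was 0.128. The other endothelial genes nearest to it were Kdr at -0.40 (SE 0.18), Emcn at -0.49 (SE 0.23) and Tek at -0.64 (SE 0.32), none of which passed. Mmp9, a metalloproteinase that can cleave chemokines, fell by 1.11 in R against NR tumours averaged over both antibody treatments (SE 0.23, edgeR adjusted p 0.0344), in 6 of 9 alternatives and 37 of 49 fits that left out a tumour, with the largest adjusted p (0.193) without anti-PD-1 replicate 12. Without the 13 libraries its adjusted p was 0.156. In the same comparison the scavenging receptors Ackr1 and Ackr3 changed by 1.14 (SE 0.51) and 0.48 (SE 0.19), and the syndecan Sdc4 by 0.65 (SE 0.30), without passing. The skin genes Sbsn and Krt10 fell by 2.84 and 2.28 in combination against celecoxib tumours (edgeR adjusted p 0.00824 for both), and without celecoxib replicate 3 they were at 0.43 and -0.18. Without the 13 libraries Krt10 was at -0.20 (edgeR adjusted p 0.838).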
